A study of Mus musculus with 8 samples.

Results

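The mitosis and spindle genes are 32 genes that cells use to enter, carry out and complete division. They were chosen by name, from a list of G2/M, spindle, kinetochore and cytokinesis genes; the choice used no threshold on a measured value, but it was made with earlier results of these data known. All 32 are among the 24421 rows of the counts table, and all 32 passed the filter on low counts that left 13540 genes for testing. The RNA came from brain endothelial cells of C57Bl6 mouse embryos, in 8 libraries, at E14.5, while the brain's vessels are forming, with 4 libraries heterozygous for Flvcr2 and 4 knockout for it. Flvcr2 encodes a membrane transporter, and its mutated allele drives GFP, so both genotypes carry at least one mutated allele and GFP, and no wild-type cells were used here. Cells were sorted for GFP and for the endothelial surface protein CD31, a sort that keeps cells with GFP from the Flvcr2 locus, although RNA of other cell types was also present, as given below. The sources used here do not give the part of the gene that the mutation removes, or say whether the libraries of a genotype came from separate embryos. P-values therefore refer only to how much these libraries differ, and some of that may be technical.

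Mitosis starts when the kinase Cdk1, bound to A- and B-type cyclins, is switched on. The kinases Plk1, Aurka and Aurkb then build the spindle and attach chromosomes to it, the checkpoint proteins hold the cell until every kinetochore is attached, and Cdc20 and Ube2c direct the anaphase-promoting complex to destroy cyclin B and securin. The motors and scaffolds of the central spindle finally split the cell. Transcripts of most of these genes accumulate in G2 and mitosis and are low in resting cells. In a bulk sample the level of such transcripts follows the share of dividing cells as well as the RNA per cell. These 2 cannot be told apart here. Brain vessels of the embryo are still growing by endothelial division at this stage.

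Many of these genes are known to share 2 promoter elements, and the sequences are shown as examples of them. One is the CHR (cell cycle genes homology region, TTTGAA), which the DREAM and B-Myb complexes bind. The other is the CCAAT box, which NF-Y binds. Promoter windows of 300 bases, 250 before and 50 after the start, were found in RefSeq (GRCm38.p6) for 27 of the 32 members. Ccna2, Cdc25c, Tpx2, Aurkb and Kif20a had no entry. TTTGAA (on the other strand TTCAAA) was in a window of 20 of the 27 members (74.1%), against 20.2% of 27025 genes in the promoter table and 1444 of the 10311 tested genes found there by symbol. It lay within 50 bases of the start in 18 members (66.7%), against 5.72% of all genes. CCAAT (on the other strand ATTGG) was in 22 of 27 (81.5%), against 41.1% of all genes and 42.5% of the tested ones. At least 2 CCAAT matches were found for 15 members (55.6%, against 13.3% of all genes). Both motifs occurred in 18 members (66.7%, against 7.97%). Matches on either strand were counted, and matches that overlap were counted separately. Such matches are a description of letters and do not show that a factor binds.

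The 250 bases before the start are given for 7 members, 5′ to 3′ on the gene's own strand, with matches to either motif in capitals. Cdk1 (chr10:69352913-69353162, - strand), Top2a (chr11:99024190-99024439, - strand) and Ube2c (chr2:164769679-164769928, + strand) show repeated CCAAT boxes upstream of a CHR, whose nearest match begins at position -15, -23 and -29 from the start. Cdc20 (chr4:118437344-118437593, - strand) and Kif11 (chr19:37376132-37376381, + strand) are shown as the members with the lowest adjusted p and with the third widest range among knockout libraries.
Cdk1: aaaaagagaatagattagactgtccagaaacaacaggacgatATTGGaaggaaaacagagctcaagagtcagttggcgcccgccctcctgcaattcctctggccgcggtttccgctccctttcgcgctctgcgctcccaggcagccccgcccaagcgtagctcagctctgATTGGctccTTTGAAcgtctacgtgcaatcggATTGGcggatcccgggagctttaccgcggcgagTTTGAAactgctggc
Top2a: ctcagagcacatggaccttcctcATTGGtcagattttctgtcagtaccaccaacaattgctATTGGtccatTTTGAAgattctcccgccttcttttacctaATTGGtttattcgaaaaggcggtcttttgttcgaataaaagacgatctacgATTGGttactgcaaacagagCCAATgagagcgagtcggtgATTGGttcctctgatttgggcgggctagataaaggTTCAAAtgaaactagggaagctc
Ube2c: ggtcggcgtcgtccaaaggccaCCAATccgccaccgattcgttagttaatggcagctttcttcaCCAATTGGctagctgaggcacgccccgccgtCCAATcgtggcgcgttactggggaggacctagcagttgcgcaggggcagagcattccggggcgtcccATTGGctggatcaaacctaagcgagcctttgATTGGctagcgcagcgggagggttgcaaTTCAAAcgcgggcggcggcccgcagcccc
Cdc20: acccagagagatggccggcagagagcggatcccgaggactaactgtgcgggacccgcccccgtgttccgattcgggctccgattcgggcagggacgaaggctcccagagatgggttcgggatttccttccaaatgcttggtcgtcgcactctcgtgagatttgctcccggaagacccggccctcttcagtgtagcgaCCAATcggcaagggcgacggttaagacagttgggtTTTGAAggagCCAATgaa
Kif11: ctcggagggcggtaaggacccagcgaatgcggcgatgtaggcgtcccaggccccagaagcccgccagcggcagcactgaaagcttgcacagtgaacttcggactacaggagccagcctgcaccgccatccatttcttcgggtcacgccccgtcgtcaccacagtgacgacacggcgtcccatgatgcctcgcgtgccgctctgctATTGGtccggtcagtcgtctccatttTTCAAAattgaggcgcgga
The windows of a further 2 members are given for their letters only, and no relation between motifs and levels was tested. Bub3 (chr7:131560120-131560369, + strand), shown by one of its 2 windows, has both motifs. Mad2l1 (chr6:66534971-66535220, + strand) has neither.
Bub3: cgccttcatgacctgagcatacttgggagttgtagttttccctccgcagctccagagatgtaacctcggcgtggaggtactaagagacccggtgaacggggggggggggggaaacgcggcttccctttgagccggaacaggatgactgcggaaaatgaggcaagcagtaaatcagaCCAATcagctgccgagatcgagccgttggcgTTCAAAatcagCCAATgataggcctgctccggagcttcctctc
Mad2l1: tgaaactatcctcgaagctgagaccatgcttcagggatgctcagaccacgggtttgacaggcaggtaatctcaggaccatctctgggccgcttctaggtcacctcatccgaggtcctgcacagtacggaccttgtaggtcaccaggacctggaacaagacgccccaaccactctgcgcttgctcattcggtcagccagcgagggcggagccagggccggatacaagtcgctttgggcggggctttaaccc
In Ube2c the run CCAATTGG holds 2 overlapping matches, one on each strand. Nusap1 and Birc5, like Mad2l1, had no match to either motif in their windows.

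**Figure D1:**
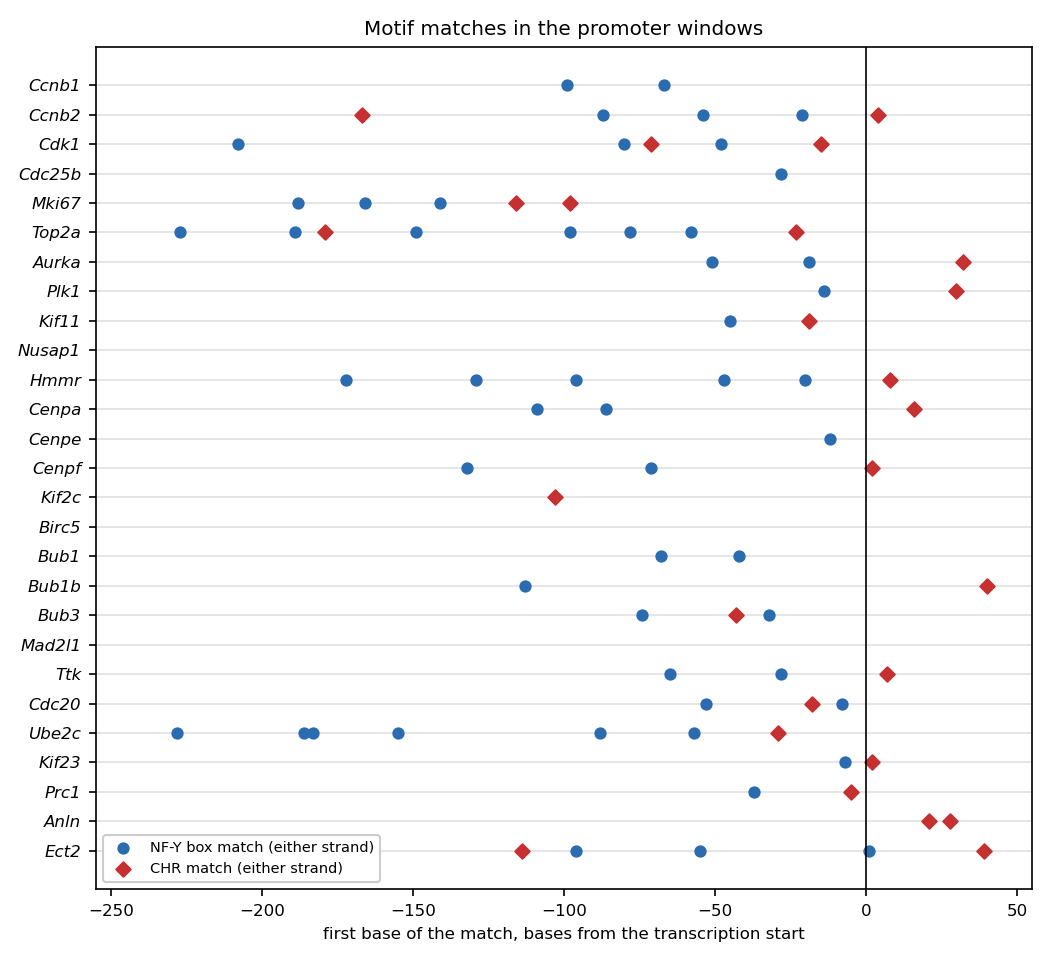
Each row is one of the 27 members with a promoter window, and the horizontal axis gives the first base of a match in bases from the transcription start (line at 0; window from 250 before to 50 after). Circles mark NF-Y boxes and diamonds mark CHR matches on either strand, in the window nearest the gene's annotated start; the CHR lay within 50 bases of the start in 18 members, counted over all their windows.

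Total counts ran from 9.11 to 22.6 M in heterozygous and from 12.1 to 35.9 M in knockout libraries, and no member had fewer than 46 counts in any library. Levels are given in CPM (counts scaled to library size) with TMM factors, which ran from 1.001 to 1.10 in heterozygous and from 0.933 to 0.983 in knockout libraries. Flvcr2 itself, which the counts table lists under its older symbol Mfsd7c, was at 276, 444, 578 and 409 CPM in heterozygous libraries 1 to 4 and at 393, 227, 260 and 326 CPM in knockout libraries 1 to 4. The groups overlapped and Mfsd7c was not called (log2 fold change -0.50 ± 0.24; edgeR adjusted p = 0.209). A count over the whole gene includes exons that the mutation may leave in place, so it does not check the genotype labels. The endothelial label was checked against 10 markers: all were counted in every library, with summed levels of 5164 to 9152 CPM in heterozygotes and 6362 to 8963 CPM in knockout libraries. Of these 10, Emcn, the gene of the surface protein endomucin, rose (2.28-fold, edgeR adjusted p = 0.00321) and 0 fell. Over all tested genes 5.53% rose and 4.02% fell. At an unadjusted p under 0.05 edgeR had 5 of the 10, against 25.6% of all genes. Of the 5, Pecam1, Flt1, Egfl7 and Emcn were higher in knockout, and Cldn5 was lower (log2 fold change -0.45). Cldn5 had means of 3796 CPM in heterozygotes and 2775 CPM in knockout libraries, a large part of the summed levels. Markers of other cell types were also present. Of these, 7 of 10 neuron, 3 of 10 radial glia, 2 of 7 pericyte, 1 of 8 microglia and 4 of 6 erythroid markers fell in knockout (edgeR, adjusted p under 0.05). The share that fell over all tested genes was 4.02%. The 4 erythroid markers were Hbb-y, Hba-x, Epor and Tfrc, and Tfrc is not specific to erythroid cells. The 10 neuron markers summed to 287 to 1828 against 91.3 to 282 CPM, the 8 microglia markers to 380 to 1098 against 98.8 to 638 CPM, the 7 tested pericyte markers to 159 to 272 against 19.9 to 166 CPM, and the 6 tested erythroid markers to 346 to 703 against 57.3 to 97.9 CPM. The radial glia and neural progenitor list summed to 1314 to 1438 against 1320 to 1565 CPM; without Vim and Nes, which endothelial cells also express, the other 8 summed to 146 to 456 against 35.0 to 237 CPM. Emx2, Hba-x, Hbb-bh1, Klf1 and Myh11 were among the markers at 0 in at least 1 knockout library, and Klf1 and Myh11 also in at least 1 heterozygous library. Neural progenitors and erythroid precursors of the embryo divide, and their part in the levels below was not tested. Heterozygous 2 and knockout 1 had almost no Xist (0 and 1 counts, against 229 to 1135 in the other 6) and 331 and 914 counts of the Y-linked gene Ddx3y. Heterozygous 3, heterozygous 4 and knockout 4 also had Ddx3y counts (28, 56 and 6), and the rest had 0.

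Knockout was compared with heterozygous to ask what losing Flvcr2 changes in the RNA of these cells. None of the 32 mitosis and spindle genes passed the test in either direction (edgeR quasi-likelihood test, adjusted p from 0.261 to 0.9752), while 9.55% of all 13540 tested genes did, 5.53% higher and 4.02% lower in knockout. DESeq2 and limma voom also called 0 of the 32. At an unadjusted p under 0.05 edgeR had 0 of 32 members, against 25.6% of all genes. Without knockout 4 it had 6 of 32, with 22 members negative and 21 smaller than 0.5 in size, and still called 0. The median log2 fold change of the members was -0.04, from -0.67 for Anln to 0.27 for Cenpe, beside -0.03 over all tested genes. Of the members 18 had a negative and 14 a positive log2 fold change. Scaling by library size alone made 27 of them negative, but it also moved the median of all tested genes to -0.15 and the share of called genes that were higher from 57.9% to 42.6%. Of the 32 values with TMM scaling, 30 were smaller than 0.5 in size, and 0 exceeded 1 (2699 of 13540 over all genes). The heterozygous and knockout ranges overlapped for all 32, whereas they did not overlap for 17.6% of all genes.

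A missed threshold does not show equal levels, so the 95% interval of each difference is the more telling value. For 22 of the 32 members the whole interval lay within a 2-fold change in either direction, as it did for 45.9% of all tested genes. No member's interval reached a 2-fold rise, the highest upper bound being 0.95 on the log2 scale for Cenpe. For the other 10 (Ccna2, Cdc25b, Mki67, Kif11, Kif2c, Bub1, Ttk, Cdc20, Anln and Ect2) the interval allowed a fall of more than 2-fold. Among these the widest was that of Anln, from -1.81 to 0.48, which allows a level up to 3.51-fold lower. The narrowest interval belonged to Bub3, from -0.29 to 0.26, or at most a 1.23-fold difference. The median SE of the members was 0.27, beside 0.28 over all genes.

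**Figure D2:**
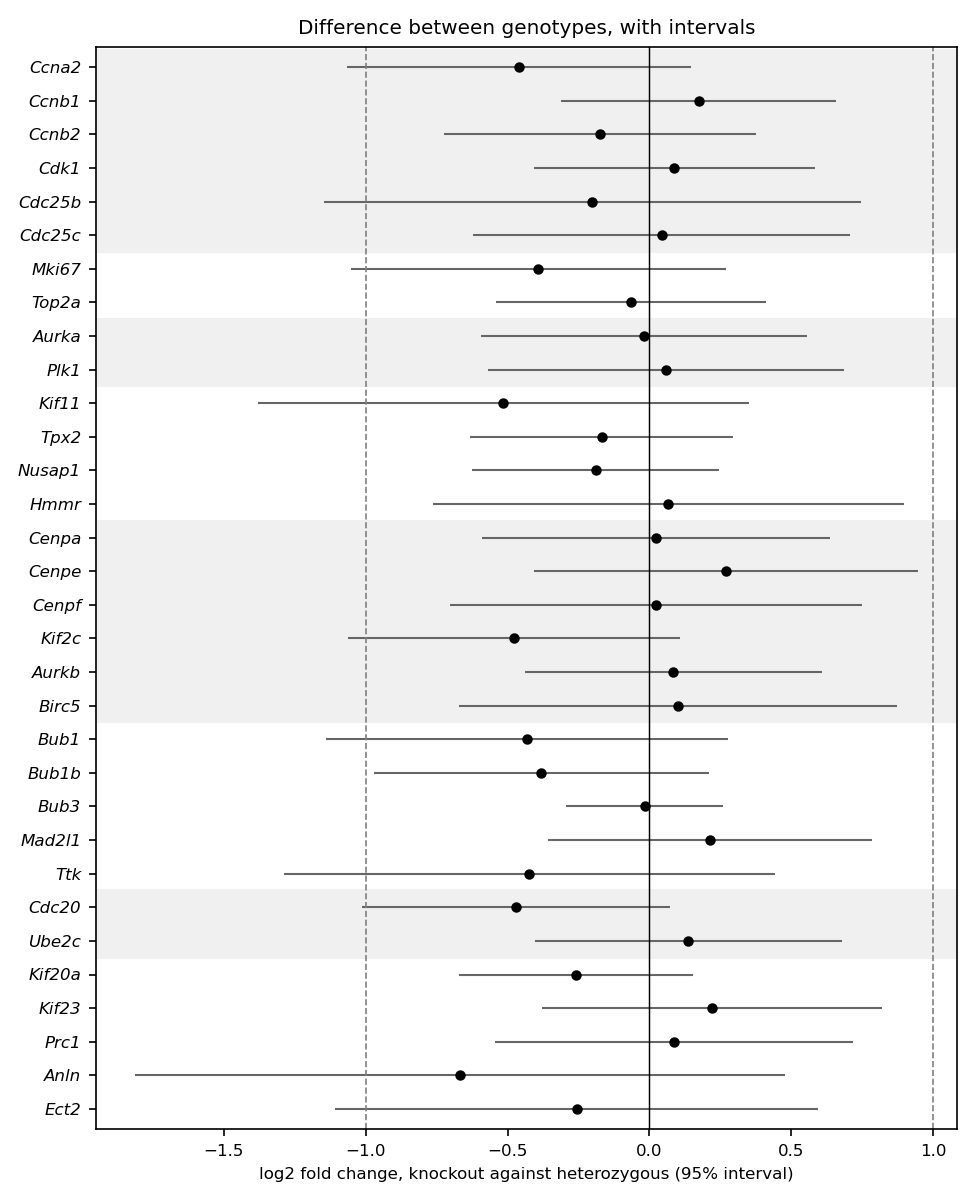
Points are log2 fold changes of the 32 members, knockout against heterozygous, with 95% intervals from the edgeR fit (4 libraries a genotype), and grey bands separate the roles in the order used in the text. Dashed lines mark a 2-fold change in either direction; 22 intervals lie between them, and the other 10 extend past the left line.

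Among the genes of mitotic entry, Ccnb1 and Ccnb2 encode the B-type cyclins that activate Cdk1. Ccnb1 was at 149, 113, 120 and 125 CPM in heterozygous libraries 1 to 4 and at 93.8, 171, 115 and 191 CPM in knockout libraries 1 to 4. Knockout 2 and knockout 4 were above every heterozygous library and knockout 1 was below all of them, so the ranges overlapped (log2 fold change 0.17 ± 0.22, SE; edgeR adjusted p = 0.670). Reads of Ccnb1 could be split with its copies, since Ccnb1-ps, Gm12856, Gm7483 and Gm8416 are transcripts at least 95% identical to it over 200 bases or more. Cdk1, the kinase itself, had 124, 153, 150 and 180 CPM in heterozygotes and 117, 241, 129 and 159 CPM in knockout libraries. Its order within the knockouts was the same at both ends as for Ccnb2 (46.6, 117, 80.9 and 95.6 CPM in knockout 1 to 4), with knockout 2 highest and knockout 1 lowest (0.09 ± 0.22). Ccna2, the cyclin of S phase and early mitosis, was narrow in heterozygous libraries (142, 149, 140 and 127 CPM) and wide in knockout libraries (69.9, 145, 56.6 and 134 CPM). Mean levels of 139 ± 9.14 (heterozygous) and 101.4 ± 44.7 CPM (knockout; SD, n = 4 each) resulted, and the difference was not called (-0.46 ± 0.28; edgeR adjusted p = 0.327). Knockout 1 and 3 lay below, and knockout 2 and 4 within, the heterozygous range. The Cdk1-activating phosphatase genes Cdc25b and Cdc25c had means of 24.3 ± 6.16 against 21.1 ± 12.8 CPM and of 19.7 ± 4.62 against 20.3 ± 8.05 CPM. Cdc25b ranged 5.55-fold across the knockout libraries, from 6.61 CPM in knockout 3 to 36.7 CPM in knockout 4.

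Mki67, the gene of the proliferation marker Ki-67 that coats mitotic chromosomes, had 19.6, 22.3, 14.6 and 20.4 CPM in heterozygous libraries. In knockout libraries 1 to 4 it had 8.69, 19.3, 11.4 and 19.0 CPM. Knockout 1 and 3 were below the lowest heterozygous library and the other two were inside the range (-0.39 ± 0.30; edgeR adjusted p = 0.451). Top2a, the topoisomerase that untangles sister chromatids, had 52.8, 63.6, 73.4 and 48.7 CPM in heterozygotes and 39.4, 73.3, 51.0 and 64.3 CPM in knockout libraries. Only knockout 1 lay outside its heterozygous range (-0.07 ± 0.22).

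The spindle kinase genes showed the same contrast between a narrow and a wide group. Aurka, whose product matures centrosomes, was at 63.1, 63.1, 55.5 and 57.3 CPM in heterozygotes and at 36.0, 81.1, 40.7 and 77.9 CPM in knockout libraries. No knockout library lay inside the heterozygous range: 2 were below and 2 above it, with mean levels of 59.7 ± 3.97 (heterozygous) and 58.9 ± 23.9 CPM (knockout; SD, n = 4 each; log2 fold change -0.02 ± 0.26). Plk1, the polo-like kinase, gave the same picture with 84.0, 113, 89.6 and 74.1 CPM against 63.4, 129, 54.9 and 129 CPM (0.06 ± 0.28).

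Of the spindle motors and microtubule-binding proteins, Kif11 is the motor that pushes the spindle poles apart. It was at 20.6, 22.4, 23.8 and 14.9 CPM in heterozygotes and at 4.5997, 15.7, 15.9 and 20.9 CPM in knockouts (-0.51 ± 0.39; edgeR adjusted p = 0.449). Without knockout 1 its log2 fold change was -0.21. Tpx2, the activator of Aurora A, and Nusap1, a microtubule bundler, had means of 66.5 ± 14.1 against 59.1 ± 13.4 CPM and of 49.5 ± 4.16 against 43.4 ± 10.99 CPM. Hmmr, a spindle and hyaluronan-binding protein gene, was the only member with its lowest knockout level in knockout 2. Its levels in knockout 3 and 4 were high (23.2 and 25.8 CPM) and those in knockout 1 and 2 low (10.5 and 10.3 CPM). In heterozygous libraries it was at 11.4 to 24.6 CPM.

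At the centromere, Cenpa, the histone H3 variant that marks it, had 117, 119, 80.3 and 81.2 CPM in heterozygotes and 63.3, 166, 93.6 and 81.8 CPM in knockouts (0.02 ± 0.28). Birc5 encodes survivin, a member of the chromosomal passenger complex with Aurkb. It was at 102, 138, 79.4 and 116 CPM in heterozygotes and at 67.3, 224, 75.6 and 100.2 CPM in knockout libraries, so that knockout 2 alone was above the heterozygous range (0.10 ± 0.35; without knockout 2, -0.42, edgeR adjusted p = 0.259). Aurkb ran from 68.2 to 79.6 CPM in heterozygotes and from 49.0 to 111 CPM in knockout libraries. Cenpe, a kinetochore motor gene, and Cenpf, a kinetochore protein gene, differed by 0.27 ± 0.31 and 0.02 ± 0.33 on the log2 scale. Kif2c, which depolymerises misattached microtubules, was at 52.7, 49.8, 43.5 and 25.5 CPM in heterozygotes and 22.2, 27.4, 31.3 and 42.2 CPM in knockouts (-0.48 ± 0.27; edgeR adjusted p = 0.292). In heterozygous libraries its spread was at least as wide as in knockout libraries, unlike most members.

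The spindle checkpoint members fell into a constant gene and several variable ones. Bub3, a checkpoint scaffold protein, had 272, 254, 261 and 286 CPM in heterozygotes and 232, 298, 264 and 267 CPM in knockout libraries, the smallest relative range of any member in the knockouts (1.29-fold). Its partners Bub1 and Bub1b differed by -0.43 ± 0.32 and -0.38 ± 0.27 (edgeR adjusted p = 0.436 and 0.406). Bub1b was at 61.8, 70.1, 54.98 and 39.6 CPM in heterozygotes and 34.1, 45.6, 28.8 and 65.0 CPM in knockout libraries, with knockout 1 and 3 below the heterozygous range. The checkpoint kinase gene Ttk was at 12.0 to 18.9 CPM in heterozygous libraries and at 8.94, 9.67, 4.84 and 19.2 CPM in knockout libraries 1 to 4. Mad2l1, which inhibits Cdc20, ran from 40.1 to 61.1 CPM in heterozygotes and from 32.04 to 80.1 CPM in knockouts (0.21 ± 0.26).

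Cdc20, the activator of the anaphase-promoting complex, had the lowest adjusted p of all members. It was at 152, 187, 121 and 115 CPM in heterozygotes and at 73.3, 121, 76.4 and 144 CPM in knockout libraries, with means of 144 ± 33.1 and 104 ± 34.8 CPM (SD, n = 4 each). The difference of -0.47 ± 0.25 was not called (edgeR adjusted p = 0.261), and knockout 4 was above 2 heterozygous libraries. Ube2c, the ubiquitin-conjugating enzyme of the same complex, had the higher mean in knockout, at 113 ± 18.2 and 124 ± 45.0 CPM (0.14 ± 0.25). The Ube2c exons overlap those of Tnnc2 on the opposite strand over 22.8% of their length, and no source used here gives the strand setting of the counting.

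The cytokinesis genes included the widest differences between libraries. Anln, the actin-binding scaffold of the contractile ring, had 15.2, 33.03, 19.3 and 16.0 CPM in heterozygotes and 10.6, 20.03, 2.62 and 19.3 CPM in knockout libraries. The value in knockout 3 rests on 46 counts, and the knockout range of 7.65-fold was the largest of any member (-0.67 ± 0.52; edgeR adjusted p = 0.458). Without knockout 3 the log2 fold change of Anln was -0.31. Kif23 and Prc1, which form the central spindle, had means of 28.0 ± 6.81 against 32.7 ± 11.02 CPM and of 58.5 ± 17.8 against 62.1 ± 25.7 CPM. The motor gene Kif20a was at 86.9 ± 14.05 and 72.5 ± 16.3 CPM, and Ect2, which activates RhoA at the cleavage site, at 14.01 ± 6.03 and 11.7 ± 4.66 CPM. Neither of these was called (edgeR adjusted p = 0.422 and 0.725). Kif20a exons overlap those of Cdc23 on the opposite strand over 29.3% of their length, so the same limit holds for it.

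Levels of different members were compared per kilobase of exon. In heterozygous libraries Cdc20 was the highest, at 77.0 CPM per kb, followed by Ccnb2 at 62.6, Ube2c at 43.4 and Plk1 at 41.1 CPM per kb. The library ranges of Cdc20 (61.7 to 100.2 CPM per kb) and Ccnb2 (49.7 to 73.0) overlapped, as did those of Ube2c and Plk1. Cenpf and Mki67 were the lowest, at 1.40 and 1.91 CPM per kb. The exon length is the union over all annotated transcripts, so that genes with long unused exons appear low. Exons of Ccna2, Cdc25b, Cdc25c, Plk1, Nusap1, Cdc20 and Prc1 also overlap a gene on the opposite strand, and Mad2l1 and Mki67 each have 1 near-identical transcript elsewhere, so their counts are uncertain to that extent.

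The members as a set differed more between the knockout libraries than between the heterozygous libraries. Each gene's log2 CPM was set against its own mean in heterozygous libraries, and the median of this difference over the 32 members was 0.04, 0.16, 0.00 and -0.25 in heterozygous libraries 1 to 4. It was -0.61, 0.11, -0.35 and 0.15 in knockout libraries 1 to 4. The 32 members summed to 2234, 2366, 2103 and 2030 CPM in heterozygotes and to 1456, 2706, 1673 and 2480 CPM in knockout libraries. Knockout 1 and 3 thus had the lowest sums of all 8 libraries and knockout 2 and 4 the highest. In knockout 1 all 32 members were below their heterozygous mean and 29 were below every heterozygous library, against 26.8% of all tested genes. In knockout 3, 16 members were below every heterozygous library and 0 above, against 26.7% and 26.2% of all genes. In knockout 2, 15 members were above every heterozygous library and 4 below, against 29.0% and 29.7% of all genes. In knockout 4, 12 members were above and 0 below, against 27.9% and 25.8% of all genes, so the count above lies near the share over all genes.

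Within the knockouts, the highest library was knockout 2 for 17 members and knockout 4 for the other 15, and never knockout 1 or 3, which were highest for 20.7% and 26.8% of all tested genes. The lowest was knockout 1 for 21 members, knockout 3 for 10 and knockout 2 for 1 (Hmmr). Heterozygous libraries were less uniform in order: heterozygous 2 was highest for 13 members and lowest for 3, and heterozygous 4 was highest for 3 and lowest for 15. The SD of log2 CPM was larger in knockout than in heterozygous libraries for 29 of the 32 members, all but Tpx2, Kif2c and Ect2, against 53.2% of all tested genes. The median SD was 0.31 in heterozygous and 0.55 in knockout libraries over the members, and 0.37 and 0.38 over all genes. This pattern was noticed in the data and is given as a description, and the members are not independent of each other within a library. Leaving out knockout 2 moved the members' median log2 fold change to -0.22, with 27 of 32 negative and 0 called, and leaving out knockout 1 moved it to 0.08, with 14 negative and 0 called.

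**Figure D3:**
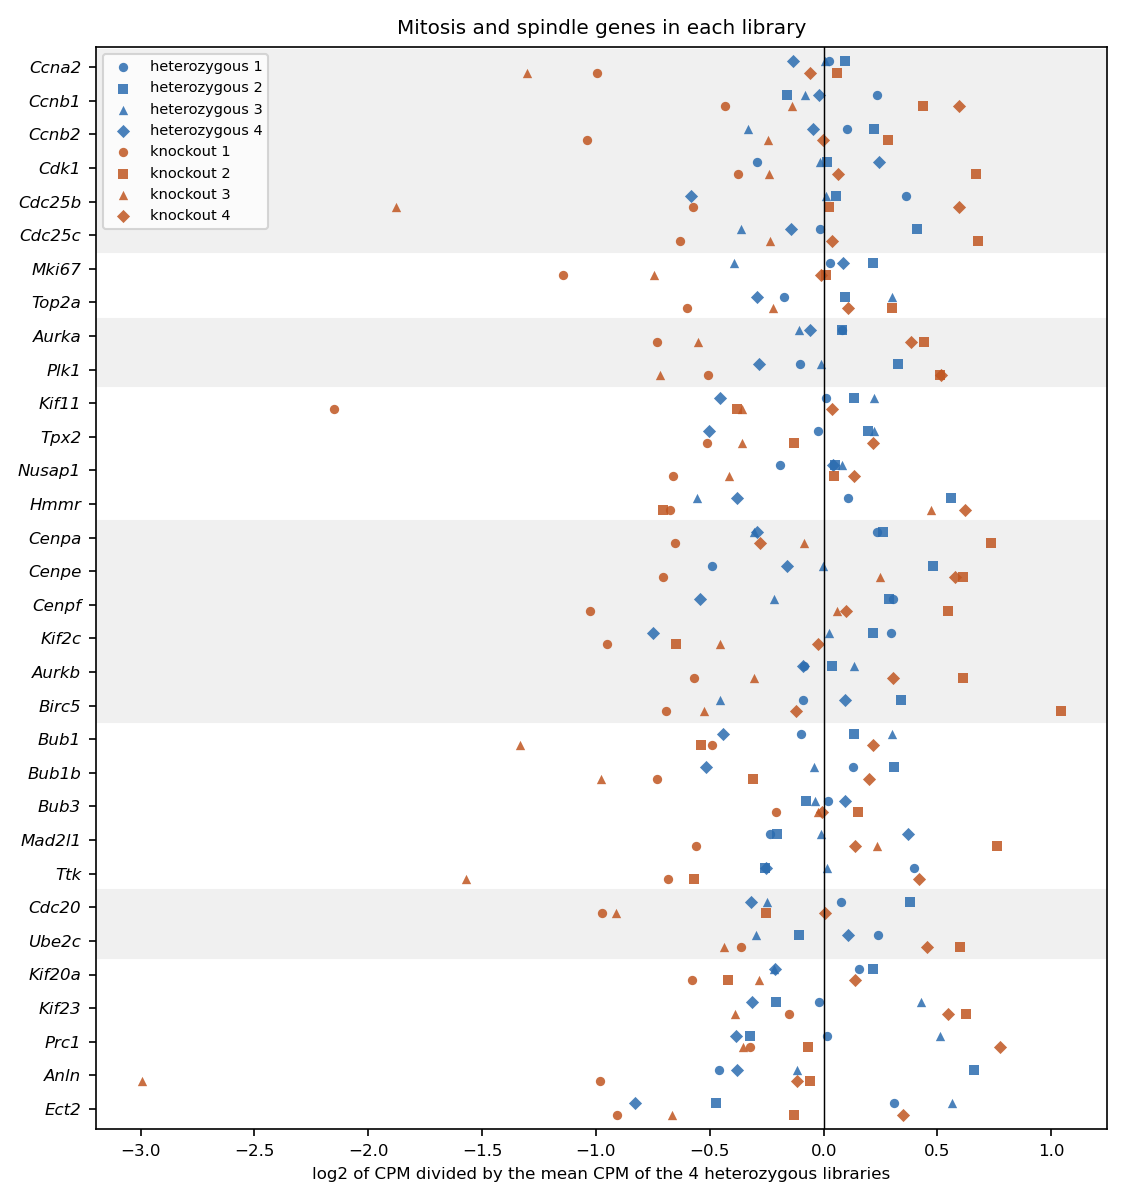
Each row is a member, grouped in grey and white bands by role, and the horizontal axis is the log2 of its CPM divided by the mean CPM of the 4 heterozygous libraries. Blue symbols are heterozygous and orange symbols knockout libraries, with 1 shape for each replicate number; the orange circles (knockout 1) lie left of the line at 0 in all 32 rows, and the rightmost orange symbol is always knockout 2 or knockout 4.

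Marker levels of other cell types moved between the same libraries. In knockout libraries 1 to 4 the neuron markers summed to 211, 93.6, 282 and 91.3 CPM, and the 8 radial glia and progenitor markers other than Vim and Nes to 126, 39.9, 237 and 35.0 CPM. The microglia markers summed to 402, 274, 638 and 98.8 CPM, the erythroid markers to 81.7, 57.3, 97.9 and 60.1 CPM, and the pericyte markers to 19.9, 57.1, 166 and 20.7 CPM. The 2 knockout libraries with the lower member sums, 1 and 3, thus had the higher sums of the neuron, progenitor, microglia and erythroid markers, but not both of the pericyte markers. The erythroid order depended on Tfrc, which was at 23.5, 32.5, 65.9 and 15.8 CPM in knockout libraries 1 to 4. Across heterozygous libraries the order differed: heterozygous 1 had the most neuron markers (1828 CPM, against 287, 767 and 432 CPM) and the second highest member sum. The 10 endothelial markers summed to 8963, 6362, 7649 and 8243 CPM in knockout libraries 1 to 4. Total counts did not follow the member sums, since knockout 2 had the fewest (12.1 M) and knockout 4 the most (35.9 M) of the 4. The part of other cells, of depth or of embryo sex in the differences between knockout libraries was not tested.

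**Figure D4:**
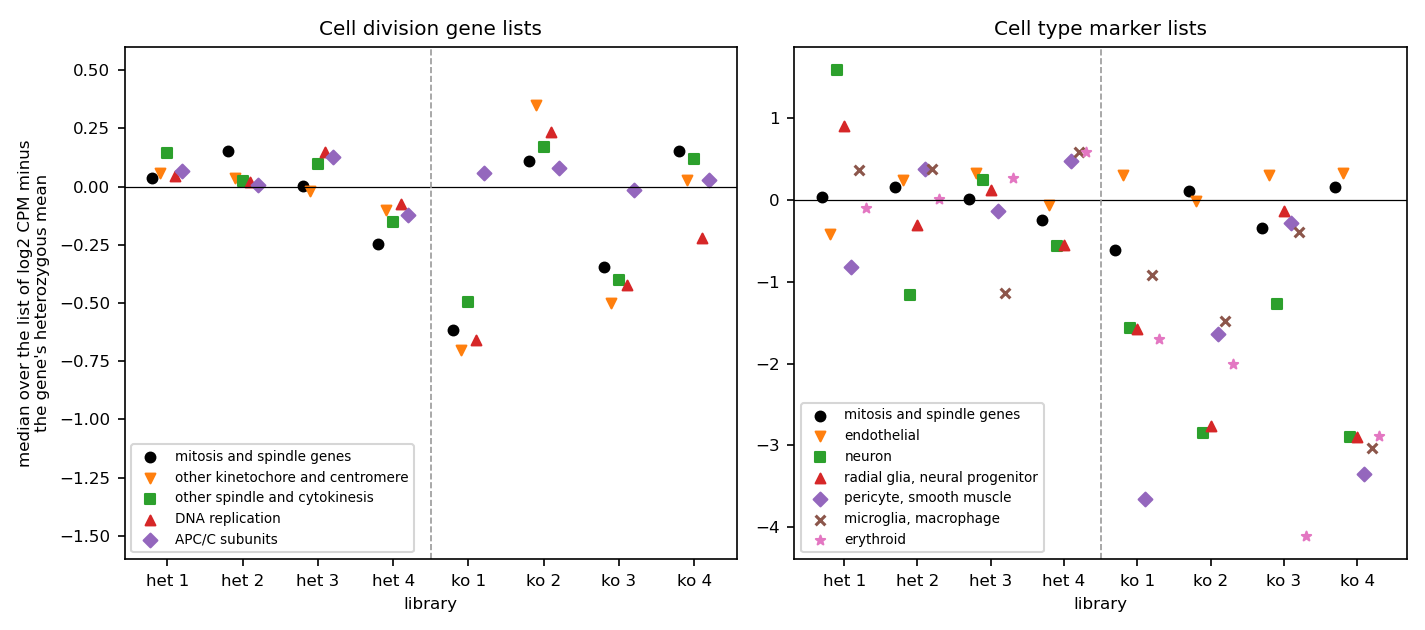
Each symbol is the median over a gene list of log2 CPM minus the gene's heterozygous mean, for the 4 heterozygous (het) and 4 knockout (ko) libraries on the horizontal axis; the left panel holds cell division lists and the right panel cell type markers, on different vertical scales. The mitosis and spindle genes (black) were at -0.61, 0.11, -0.35 and 0.15 in knockout 1 to 4, and subunits of the anaphase-promoting complex (APC/C) stayed between -0.12 and 0.13 in all 8 libraries.

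Other cell division genes were taken from 8 lists that together hold 169 genes, all of them tested. Of these 1 rose and 4 fell in knockout libraries, against 5.53% and 4.02% of all tested genes. The same shares apply to the counts of each list below. The median log2 fold change of the 169 genes was -0.17. Of 38 other kinetochore and centromere genes 0 passed the test, with a median of -0.16. Their most abundant genes were Zwint (274 ± 24.2 against 315 ± 39.6 CPM) and Cdca8 (90.8 ± 8.02 against 99.5 ± 41.6 CPM). Of 29 other spindle and cytokinesis genes 0 passed (median -0.12). Racgap1, the partner of Kif23, was at 123 ± 12.3 and 104 ± 20.01 CPM, and Tacc3, a spindle protein gene, at 93.9 ± 14.3 and 78.7 ± 24.9 CPM. Of 12 centrosome duplication genes 0 passed (median -0.18), and Tubg1, the gamma-tubulin gene, was at 96.6 ± 4.10 and 84.6 ± 24.2 CPM, beside Nek2 at 23.3 ± 6.28 and 20.6 ± 13.2 CPM. At an unadjusted p under 0.05 edgeR had 2, 2 and 0 genes of these 3 lists, against 25.6% of all tested genes. DESeq2, which called 16.4% of all tested genes, called 0, 1 and 0 of them. The 1 was Clasp1, which is named after its value was seen.

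The 17 subunits and regulators of the anaphase-promoting complex had a median of 0.00, and 0 passed the test (edgeR; 1 at an unadjusted p under 0.05, and 0 by DESeq2). For all 17 the 95% interval lay within a 2-fold change. Anapc5 was at 520 ± 76.3 and 570 ± 55.2 CPM, and Ube2s, which extends ubiquitin chains, at 179 ± 25.1 and 246 ± 49.3 CPM. Their list also differed less between knockout libraries than the members did, with medians of 0.06, 0.08, -0.02 and 0.03 in knockout 1 to 4.

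Of 15 genes for mitotic transcription and entry control, Pbk, a mitotic kinase gene, fell from 64.3 ± 7.49 to 38.4 ± 9.65 CPM (edgeR adjusted p = 0.0415; log2 fold change -0.74 ± 0.20). With each library left out in turn, its call held in 2 of 8 fits, those without knockout 2 and without knockout 4. Foxm1, the transcription factor that drives many G2 and mitosis genes, was at 19.0, 34.6, 28.0 and 13.3 CPM in heterozygotes and at 16.3, 24.4, 13.3 and 32.3 CPM in knockout libraries. Its ranges overlapped (-0.13 ± 0.35), and knockout 2 and 4 were again its higher knockout libraries. Of 20 condensin, cohesin and separase genes, the condensin subunit gene Ncapd2 fell from 90.6 ± 7.97 to 57.6 ± 12.5 CPM (edgeR adjusted p = 0.0395; -0.65 ± 0.17), a call that held in 1 of 8 such fits, the one without knockout 4.

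Genes of DNA replication and of G1 control were set beside the members as the parts of the cycle that precede mitosis. Of 24 replication genes 1 fell and 0 rose, against 4.02% and 5.53% of all tested genes, with a median of -0.21. The one called was Mcm7, a subunit of the replicative helicase, at 149, 134, 154 and 121 CPM in heterozygotes and 56.6, 76.8, 65.5 and 67.9 CPM in knockouts (2.09-fold lower; edgeR adjusted p = 0.0029). Its groups did not overlap, and its call held whichever 1 of the 8 libraries was left out. Of 14 G1 genes 1 rose and 1 fell, with a median of -0.04. Cdkn1a, the p21 inhibitor of cyclin-dependent kinases, was at 158, 255, 306 and 390 CPM in heterozygotes and at 1830, 1088, 1405 and 1214 CPM in knockouts (4.99-fold higher; edgeR adjusted p = 0.00127). Within the knockouts the 2 libraries with more Cdkn1a, 1 and 3, were the 2 with the lower member sums, and among heterozygous libraries the one with the most Cdkn1a, heterozygous 4, had the lowest member sum. Across genotypes this order did not hold. Knockout 2 and 4 had more Cdkn1a than every heterozygous library and also the highest member sums of all libraries (2706 and 2480 CPM). A relation between Cdkn1a and the members was not tested. Cdkn1c, the p57 inhibitor, moved the other way, from 456 ± 63.0 to 140 ± 45.7 CPM (3.27-fold lower; edgeR adjusted p = 0.00232). The mitosis and spindle genes themselves were not called beside these changes, and whether the lists differ from each other was not tested.

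**Figure D5:**
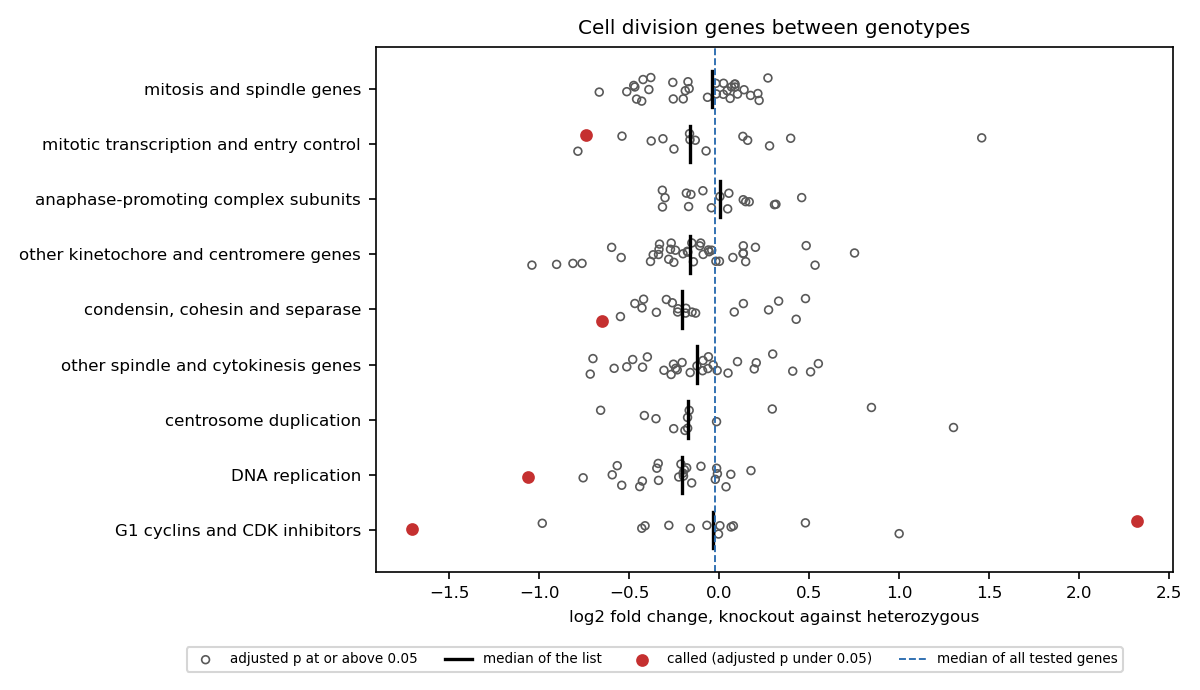
Each point is the log2 fold change of 1 gene, knockout against heterozygous, for the 32 mitosis and spindle genes and 8 lists of other cell division genes, with vertical jitter only to separate points. Filled red points passed the edgeR test (Pbk, Ncapd2, Mcm7, Cdkn1c and Cdkn1a), black bars are list medians, and the dashed line is the median of all 13540 genes (-0.03).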

How the data were processed

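RNA was made into libraries with SMART-Seq v4 and Nextera XT, per the labels' protocols. The authors deposited raw counts per gene symbol, and the submitters' processing notes name TopHat2 0.7, Cufflinks 2.2.1 and mm10. No source used here gives the counting program or its strand setting. From these counts, genes were kept with filterByExpr (minimum count 10, minimum total 15), scaled by TMM and tested with edgeR 4.0.16 (robust quasi-likelihood F-test, knockout against heterozygous, 4 libraries each, Benjamini-Hochberg adjusted p under 0.05). The fit was made over all 13540 genes and was tested on simulated data. Errors are SD over libraries, or the SE and 95% interval of the fit. Within-group pairs of libraries differed beyond sampling noise. Alternatives were scaling, filters, DESeq2 1.42.0, limma 3.58.1 voom, a replicate block and leaving out libraries. Named genes are all members and, from each other list, up to 4 genes called by smallest p or, where none was called, the 2 most abundant, plus Foxm1 and Cdkn1a. Members and lists were chosen with earlier results of these data known. Promoters are from RefSeq (GRCm38.p6), exon lengths from GENCODE M21.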

Additional observations from a re-analysis of the deposited data

Results flagged for a closer look

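Nusap1 in heterozygous 1 was at 43.3 CPM, while the other 3 heterozygous libraries lay between 50.9 and 52.4 CPM. It stood apart from its group by Dixon's criterion, as 1 of 64 groups of 4 libraries checked (32 members in 2 genotypes). Chance alone flags about 1 group in 20.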

How the results depend on the processing

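Under all 19 alternatives 0 of the 32 members were called in either direction. Their lowest adjusted p was 0.12 (Kif2c, without heterozygous 4). The members' median log2 fold change lay between -0.22 (without knockout 2) and 0.12 (without heterozygous 2 and knockout 1), and 17 members, none of them called, changed sign in at least 1 alternative. Over all genes, 1293 calls became 2221 with DESeq2, and 579 to 1347 when 1 library was left out, the lowest being without knockout 1. Without heterozygous 1 and knockout 2 there were 842, and without heterozygous 2 and knockout 1 there were 300. Among the other cell division genes, 4 lower calls became 2 without the filter on low counts, 8 with DESeq2, 2 without heterozygous 2 and knockout 1, and 2 to 5 when 1 library was left out. The 1 higher call became 3 with DESeq2 (Gtse1, Cdkn1a and E2f4) and 1 to 3 when 1 library was left out; without knockout 3 they were Gtse1, Ccnd1 and Cdkn1a. Gtse1, E2f4 and Ccnd1 are named after their values were seen. Cdkn1a, Mcm7 and Cdkn1c were called in every alternative; Pbk and Ncapd2 were not. With the replicate number as a block, 868 genes were called, with 2 lower other cell division genes and a members' median of -0.10. For the replicate numbers, each gene's log2 CPM minus its own genotype's mean was compared between libraries of the 2 genotypes. In same-numbered libraries these differences correlated at 0.06, 0.21, -0.05 and 0.02. Only heterozygous 2 correlated best with its own number, so the numbers were not taken as pairs. The causes of these changes were not tested.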
